A study of Conyza sumatrensis with 22 samples.

Results

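In leaves of Sumatran fleabane (Conyza sumatrensis), a weed of the daisy family, 197 of the 45437 gene models in the deposited tables were already expressed before treatment in both 2,4-D-sensitive populations, S and T, and stood clearly higher in both after it. Genes were chosen by their measured levels in S and T. A gene was kept if, in S and in T separately, its mean untreated level was at least 1 TPM (a level scaled by transcript length and library size), its treated mean was at least 2.5 times the untreated mean, and its lowest treated library lay above its highest untreated library. The 22 libraries of leaf polyA RNA came from 3 populations and formed 6 groups. Treated leaves were taken 5 h after a 2,4-D spray (1005 g ai per hectare, where ai is active ingredient), and untreated leaves before it. The resistant population R had 3 treated and 4 untreated libraries, S had 4 treated and 3 untreated, and T had 4 of each kind. No group was sprayed without 2,4-D, so 2,4-D, spraying and the later time of sampling cannot be told apart in any population. Only 1 resistant population was sampled, and the labels do not say whether libraries of a group came from separate plants. The p-values therefore measure the spread between these libraries, part of which may be technical.

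2,4-D is a synthetic auxin. As background, auxin binds TIR1/AFB receptors, which leads to the breakdown of Aux/IAA repressor proteins and frees auxin response factors to act on their target genes. Early auxin genes of other plants, such as the Aux/IAA, GH3 and SAUR families, include many that are expressed at a basal level and are raised further within hours, and in broadleaved weeds a herbicidal dose is also followed by synthesis of ethylene and abscisic acid. The files pair gene models with no names, so it is not stated which of these families the 197 genes belong to, and the leaf label could not be checked against marker genes. In whole leaves, fewer cells of a type and less RNA per cell cannot be told apart.

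The genes were selected on the libraries of S and T, so the values in S and T are a description and carry no test. Of 16873 genes that met the level clause in both populations, 267 also met the fold clause in both and 197 met all clauses, or 1.17% of the 16873. The untreated mean was below 10 TPM in both S and T for 89 of the 197 genes and at least 10 TPM in both for 75. It reached 100 TPM in both for 4, and it was below 2 TPM in S, in T or in both for 41, close to the level clause. After treatment 52 genes averaged at least 100 TPM in both. The median over genes of the treated mean was 63.9 TPM in treated S against 8.23 TPM in untreated S, and 55.9 TPM in treated T against 9.46 TPM in untreated T. The median ratio of treated to untreated mean was 5.77 in S, with quartiles of 3.77 and 12.3, and 4.91 in T, with quartiles of 3.38 and 7.64. The ratio was at least 10 in S for 57 genes and in T for 32, and for 143 genes the ratios of S and T lay within a factor of 2 of each other. Just inside the fold clause, the smaller of the S and T ratios was 2.50129 for g40407 and 2.5214 for g23115. Just outside it, among genes that met the other clauses, it was 2.49638 for g27028 and 2.48675 for g3467. The largest ratio of any gene was 214 in S and 79.3 in T.

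Ranked by the smaller of its ratios in S and T, the first gene was g6117 (coding length 915 bases), with a ratio of 60.7 in S and 79.3 in T. It had 284, 351.5, 462.4 and 613.8 TPM in treated S libraries 1 to 4, against 12.8, 5.27 and 3.11 TPM in untreated S. In treated T it had 232.5, 270.2, 180.2 and 98.5 TPM, against 1.73, 3.01, 1.61 and 3.50 TPM in untreated T. Every treated library of S and T was thus far above every untreated one. Its counts were divided between similar transcripts, meaning not whole, in 14 libraries. The next was g24805 (627 bases), with 130.6, 138.7, 319.6 and 699.6 TPM in treated S, against 6.11, 3.77 and 2.61 TPM in untreated S. In treated T it had 31.7, 93.0, 47.0 and 48.8 TPM, against 0.671, 1.01, 1.37 and 1.98 TPM in untreated T. In R, g6117 had 533, 225.6 and 175 TPM in treated libraries, against 11.3, 32.9, 84.5 and 63.5 TPM in untreated ones (edgeR log2 fold change 2.67, SE 0.55, adjusted p = 0.00251). Gene g24805 had 120.1, 45.1 and 37.5 TPM in treated R, against 3.53, 7.57, 25.1 and 33.0 TPM in untreated R (edgeR log2 fold change 1.97, SE 0.66, adjusted p = 0.0486). The R groups did not overlap for either gene, but untreated R libraries 3 and 4 stood well above the untreated libraries of S and T. The call of g6117 in R was lost only in the model that blocks libraries by number (2.90, edgeR adjusted p = 0.0761). That of g24805 was lost under 8 of 15 alternative models. Among these were the models without treated R library 1 (1.12) and without untreated R library 1 (1.63), 2 (1.74) or 3 (2.18).

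Ranked by the smaller of the treated means in S and T, the highest genes were g15488 (555 bases) and g2650 (390 bases), although other genes were higher in S or in T alone. Gene g15488 averaged 560 ± 117 TPM in treated S (SD, n = 4), against 131 ± 69 TPM in untreated S (n = 3), and 703 ± 164 TPM in treated T, against 161 ± 29.3 TPM in untreated T (n = 4 each). In R it had 967, 525.8 and 468 TPM in treated libraries, against 122, 175, 393 and 354 TPM in untreated ones. The R groups did not overlap, but untreated R libraries 3 and 4 lay close below the treated ones (edgeR log2 fold change 1.31, SE 0.38, adjusted p = 0.0240). The call was lost without treated R library 1 (0.80), without untreated R library 2 (1.19) and with R libraries alone (1.35, edgeR adjusted p = 0.116). Gene g2650 averaged 552 ± 141 TPM in treated S (n = 4), against 124 ± 16.0 TPM in untreated S (n = 3), and 659 ± 124 TPM in treated T, against 135 ± 2.35 TPM in untreated T (n = 4 each).

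**Figure D1:**
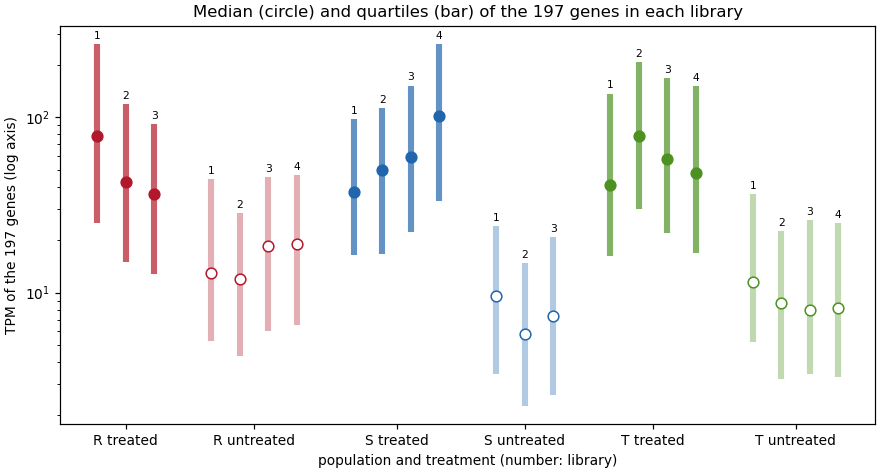
Median TPM of the 197 genes (circle, filled for treated) and their quartiles (bar) in each library, on a log axis, with the library number above each bar. Treated library 1 of R and treated library 4 of S have the highest medians of their groups, at 78.2 and 101.7 TPM.

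Most of the 197 genes were highest in the same library of a treated group. Their summed level was 2.60% ± 1.502 of all TPM in treated R (SD, n = 3), against 0.768% ± 0.178 in untreated R (n = 4). In S it was 2.66% ± 1.25 in treated leaves (n = 4), against 0.359% ± 0.0804 in untreated ones (n = 3), and in T it was 2.54% ± 0.489, against 0.466% ± 0.0693 (n = 4 each). The 3 treated means thus lay close together, but that of R rested on library 1 (4.32%, against 1.93% and 1.55% in libraries 2 and 3). The untreated mean of R was the highest of the untreated groups. The rule kept genes with low untreated and high treated values in S and T, so this comparison with R carries no test. The 10 highest genes made up 26.6% to 36.5% of the sum in a library. Treated R library 1 was the highest of the 3 treated R libraries for 177 of the 197 genes, at a median of 2.14 times the mean of the other two. Treated S library 4 was the highest of 4 for 161 genes and treated T library 2 for 137. Among untreated R libraries, library 2 was lowest for 106 genes. Within a group the median coefficient of variation of the 197 genes was 49.8% in treated R and 37.8% in untreated R, against 20.4% and 19.6% for the 16873 genes that met the level clause. In S it was 43.3% treated and 39.1% untreated, against 20.1% and 22.1% for those genes. In T it was 32.6% treated and 27.1% untreated, against 24.4% and 13.4%, so the gap was narrowest in treated T.

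The libraries held 19.2 M to 24.4 M assigned reads, and scaling factors (trimmed mean of M values, TMM) ranged from 0.837 to 1.12. Treated R library 1 had a factor of 0.878, against 1.08 and 1.12 in the other treated R libraries, and treated S library 4 had the lowest of all, 0.837. Reads of the 197 genes that lay on transcripts with divided counts made up 54.7% in treated R library 1, against 45.7% and 46.6% in the other 2, and 23.8% to 45.6% in untreated R. The part of these differences in the results below was not tested. In treated T libraries 3 and 4, transcript length minus effective length was exactly 250 bases for every transcript over 2000 bases, whereas it ranged from 236 to 265 bases over the other 20 libraries. For a transcript of 300 bases the effective length was then 51.3 bases in those 2 libraries and 57.3 to 73.5 bases in the others, so TPM of short genes is set higher there for the same reads. Without these 2 libraries the rule kept 223 genes, 191 of them among the 197.

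The resistant population had no part in choosing the genes, and its response was tested over all genes. In R, 112 of the 197 genes rose after 2,4-D and 0 fell (edgeR quasi-likelihood test, adjusted p under 0.05 over 22627 tested genes). All 197 were among the tested genes. Over all tested genes 9.37% were called higher and 7.03% lower, and among those that met the level clause in S and T 8.31% were higher and 9.05% lower. The rise thus covered 56.9% of the 197 genes. The median log2 fold change in R was 1.52, with quartiles of 0.72 and 2.51, against -0.03 over all tested genes and -0.06 over those that met the level clause. It was positive for 176 genes and negative for 21. At an unadjusted edgeR p under 0.05, 134 were higher and 2 lower. The shares of all tested genes by sign alone or at this unadjusted threshold were not counted. The fold and separation clauses used in S and T, applied to R, were met by 111 of the 197 genes (56.3%), against 4.43% of the genes that met the level clause. The groups of R did not overlap, with treated libraries higher, for 127 of the 197, against 12% of those genes. The spread in the edgeR test was estimated from all 22 libraries, including the S and T libraries that chose the genes. With R libraries alone in the fit, 87 of the 197 rose (edgeR adjusted p under 0.05), and 6.25% of the genes tested there were called higher.

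The count of 112 genes depended on 1 library. Without treated R library 1, 68 of the 197 genes rose and 3 fell (edgeR adjusted p under 0.05), with a median log2 fold change of 1.00, and of all tested genes 4.79% were called higher and 5.05% lower. All 68 were among the 112. The fold and separation clauses were met in R by 85 genes without that library. Fewer treated libraries make separation easier to reach, and the share among genes that met the level clause was not counted for this setting. Leaving out any other R library gave 95 to 112 genes that rose, with 7.12% to 10.4% of all tested genes called higher. Genes of the 197 that rose in R in the test with all libraries and in all 15 alternative models numbered 65. In the single models 4.79% to 11.4% of all tested genes were called higher. The share of all tested genes called higher in every model was not counted, so these shares do not match the 65. It can include no more than 1109 genes, the number called higher without treated R library 1.

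**Figure D2:**
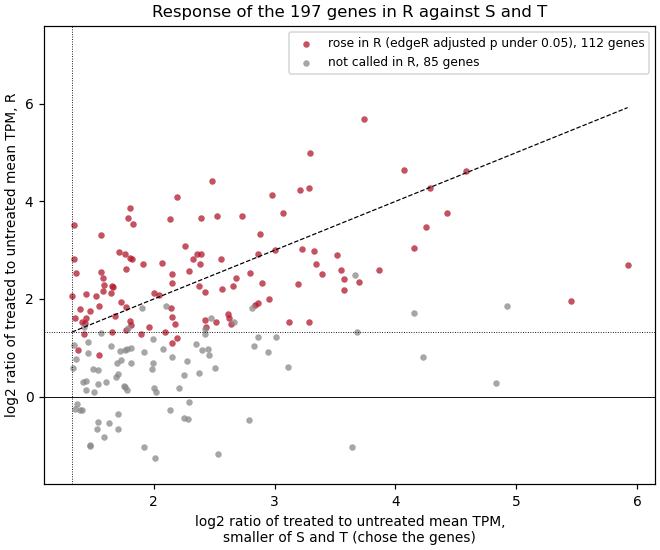
Log2 ratio of treated to untreated mean TPM in R (vertical) against the smaller of the ratios in S and T (horizontal), 1 point per gene, red where the gene rose in R. Dotted lines mark a ratio of 2.5 and the dashed line equal ratios. Red points spread above the zero line over the whole range, and grey points lie on both sides of it.

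The gene with the largest rise in R was g14761 (993 bases), at 246, 127.5 and 80.3 TPM in treated R, against 3.60, 1.72, 2.25 and 4.09 TPM in untreated R (edgeR log2 fold change 5.67, SE 0.79, adjusted p = 8.70e-05). Every treated R library was far above every untreated one. The same gene averaged 19.2 ± 17.7 TPM in treated S (SD, n = 4), against 1.12 ± 0.710 TPM in untreated S (n = 3), and 17.0 ± 10.2 TPM in treated T, against 1.27 ± 0.655 TPM in untreated T (n = 4 each). The second was g20105 (2802 bases), at 561.5, 361 and 267 TPM in treated R, against 10.6, 12.8, 14.0 and 12.3 TPM in untreated R (edgeR log2 fold change 4.93, SE 0.37, adjusted p = 4.16e-07). Its untreated R libraries were tightly grouped, and the spread lay in the treated ones. It averaged 95.9 ± 30.5 TPM in treated S (n = 4), against 6.96 ± 0.847 TPM in untreated S (n = 3), and 134.5 ± 60.7 TPM in treated T, against 13.8 ± 1.84 TPM in untreated T (n = 4 each). Both calls held under all 15 alternative models.

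The 85 genes that were not called in R had a median log2 fold change of 0.52 and ranged from -1.32 to 2.51. For 27 of them it was within 0.5 of 0, and for 19 it was at least 1. The median standard error was 0.47 for the genes not called and 0.46 for those that rose. Their median ratio was 5.18 in S and 4.38 in T, against 6.96 and 5.87 for the 112 genes that rose in R. Of the genes with at least 10 TPM in untreated R, g3927 (972 bases) had the log2 fold change in R nearest to 0. It had 82.2, 49.4 and 38.9 TPM in treated R, against 39.3, 52.0, 62.6 and 58.9 TPM in untreated R, and the groups overlapped throughout (edgeR log2 fold change 0.04, SE 0.40, adjusted p = 0.972). In S it had 81.2, 136.9, 109.1 and 214.8 TPM treated, against 23.8, 11.3 and 37.9 TPM untreated. In T it had 81.6, 137.2, 81.0 and 90.4 TPM treated, against 42.9, 26.6, 22.8 and 44.9 TPM untreated. Counts of g3927 were divided in 16 libraries. The next nearest was g22412 (1311 bases), at 37.7, 33.0 and 26.3 TPM in treated R, against 33.3, 16.9, 37.1 and 29.7 TPM in untreated R (edgeR log2 fold change 0.08, SE 0.25, adjusted p = 0.888). It averaged 70.6 ± 23.0 TPM in treated S (n = 4), against 16.7 ± 3.83 TPM in untreated S (n = 3), and 74.2 ± 17.5 TPM in treated T, against 27.3 ± 4.01 TPM in untreated T (n = 4 each). Without treated R library 1 the log2 fold changes of g3927 and g22412 in R were -0.43 and -0.13.

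For 2 genes, chosen after their values were seen, all treated R libraries lay below all untreated R libraries, against 8.85% of the genes that met the level clause. Gene g5784 (813 bases) had 35.3, 30.2 and 26.5 TPM in treated R, against 37.7, 57.8, 76.8 and 78.8 TPM in untreated R (edgeR log2 fold change -1.10, SE 0.41, adjusted p = 0.0705). In S it had 206.7, 202.7, 287 and 588 TPM treated, against 39.8, 22.6 and 51.4 TPM untreated, and in T 107.6, 221, 168 and 219 TPM treated, against 56.6, 44.0, 42.4 and 45.9 TPM untreated. The value in R did not pass the test with all libraries. It passed with DESeq2 (-1.05, adjusted p = 0.0465), with upper-quartile factors (-1.16, edgeR adjusted p = 0.0470) and without untreated R library 1 (-1.29, edgeR adjusted p = 0.0328). The other gene, g16677 (660 bases), had 5.77, 4.40 and 3.96 TPM in treated R, against 5.89, 7.42, 14.3 and 9.65 TPM in untreated R (edgeR log2 fold change -1.04, SE 0.50, adjusted p = 0.172). The genes with a lower level in R at an unadjusted edgeR p under 0.05 were g5784 and g40661, which was also named after its values were seen (edgeR log2 fold change -1.32, SE 0.54, adjusted p = 0.102). Without treated R library 1, the 3 genes called lower were g41698, g29706 and g15291, again named for their values, at -2.18, -1.29 and -1.82 (edgeR adjusted p = 0.0446, 0.0143 and 0.0358). With all libraries their log2 fold changes were -1.22, -0.65 and -0.59 and did not pass (edgeR adjusted p = 0.184, 0.194 and 0.529).

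**Figure D3:**
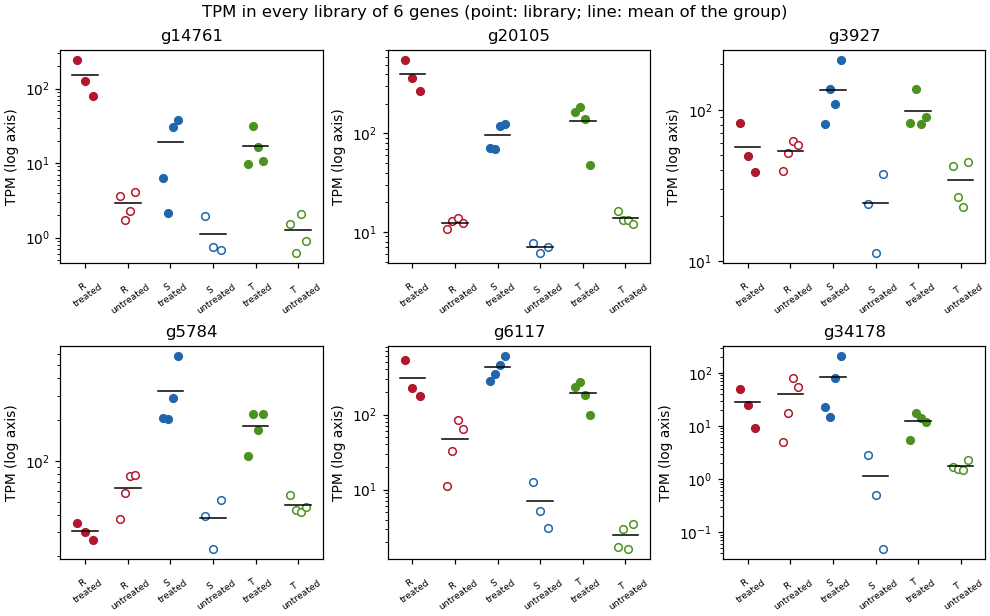
TPM in every library (points, filled for treated) and group means (lines) of 6 genes, on log axes. Treated R lies far above untreated R for g14761 and g20105, overlaps it for g3927 and g34178, and lies below it for g5784, while treated S and T lie above untreated S and T for all 6.

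**Figure D4:**
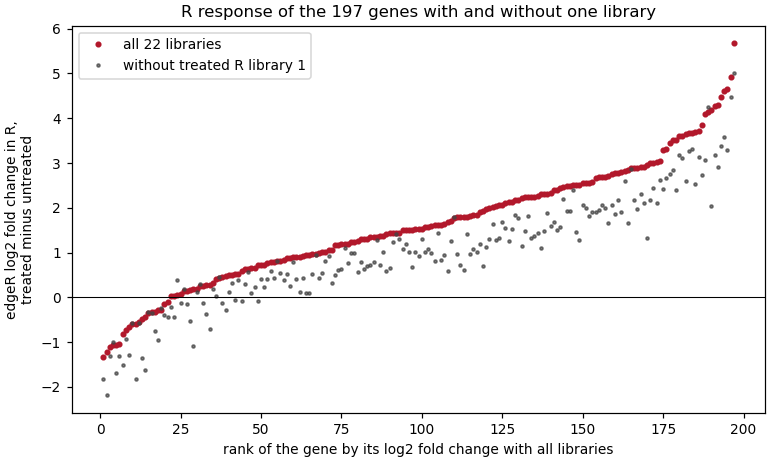
Log2 fold change in R of the 197 genes, ranked by the value with all libraries (red), with the value of the same gene without treated R library 1 (grey). The median is 1.52 with all libraries and 1.00 without that library, and most grey points lie below the red ones.

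After treatment the R mean was above both S and T for 67 of the 197 genes, between them for 40 and below both for 90. Before treatment it was above both for 113, between them for 53 and below both for 31. The median log2 ratio of R to the geometric mean of S and T was -0.22 in treated leaves, against 0.18 over the genes that met the level clause, and 0.66 in untreated leaves, against -0.04 over those genes. The rule kept genes with high treated and low untreated values in S and T, which by itself moves this ratio down in treated and up in untreated leaves, so it is given without a test. Every untreated R library lay above every untreated library of S and T for 36 of the 197 genes, a pattern that 2.5% of the genes meeting the level clause had. Every one lay below for 6, a pattern that 4.2% of those genes had. The ratio of treated to untreated mean was lower in R than in both S and T for 136 genes, between them for 28 and higher for 33, with a median of 2.95 in R. The difference between the responses was not tested, since S and T chose the genes.

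**Figure D5:**
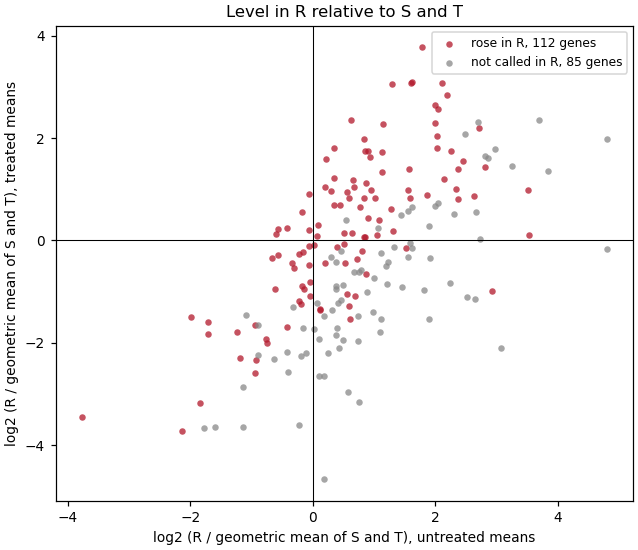
Log2 level in R relative to the geometric mean of S and T, in untreated leaves (horizontal) and treated leaves (vertical), 1 point per gene, red where the gene rose in R. Medians were -0.22 treated and 0.66 untreated, and the lower right part, lower in R after and higher before, holds mainly grey points.

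The 36 genes that were higher in untreated R had a median untreated level of 3.39 times the larger of the S and T means. Of these, 17 rose further in R (47.2%), against 56.9% of all 197 genes and 16.1% of the 422 genes that met the level clause and were likewise higher in untreated R. Over the 36 genes the median ratio of treated to untreated mean was 2.66 in R, against 7.24 in S and 5.33 in T. Choosing genes with high untreated R and low untreated S and T by itself lowers the ratio in R and raises it in S and T. The shares and ratios of these 36 genes are therefore a description and carry no test. The most different was g34178 (825 bases). In R it had 50.9, 24.95 and 9.17 TPM treated, against 5.08, 17.9, 79.7 and 54.7 TPM untreated. In S it had 22.4, 15.1, 80.2 and 213 TPM treated, against 2.84, 0.507 and 0.0479 TPM untreated, and in T 5.43, 17.6, 14.1 and 11.9 TPM treated, against 1.72, 1.58, 1.51 and 2.29 TPM untreated. The R groups overlapped, and untreated R libraries spanned the wider range (edgeR log2 fold change -0.49, SE 0.90, adjusted p = 0.790). The next was g10446 (720 bases), with 159, 138.6 and 119.7 TPM in treated R, against 78.7, 21.7, 126 and 89.6 TPM in untreated R. Untreated R library 3 reached into the treated range (edgeR log2 fold change 0.78, SE 0.55, adjusted p = 0.384). The same gene averaged 25.3 ± 7.91 TPM in treated S (SD, n = 4), against 5.69 ± 5.57 TPM in untreated S (n = 3), and 29.4 ± 13.1 TPM in treated T, against 6.60 ± 4.07 TPM in untreated T (n = 4 each). A further gene, g5785 (837 bases), was picked after its values were seen. It averaged 139 ± 106.6 TPM in treated R (n = 3), against 114.7 ± 39.2 TPM in untreated R (n = 4), and did not pass the test (edgeR log2 fold change 0.28, SE 0.58, adjusted p = 0.820). In S it averaged 762 ± 581 TPM treated (n = 4), against 11.4 ± 6.18 TPM untreated (n = 3), and in T 469 ± 172 TPM treated, against 16.5 ± 6.57 TPM untreated (n = 4 each).

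In the other direction stood g2650, described above for its treated level. In R it had 274, 154 and 166.5 TPM treated, against 22.4, 45.6, 33.1 and 56.9 TPM untreated (edgeR log2 fold change 2.31, SE 0.31, adjusted p = 7.01e-05). Untreated S had 118.4, 112.4 and 142.6 TPM, and untreated T 136.5, 137.0, 136.4 and 132.0 TPM. Every treated R library thus lay above every untreated library of S and T, and below every treated one. Gene g14117 (1821 bases) had 3.77, 1.39 and 3.12 TPM in treated R, against 0.874, 0.436, 0.470 and 0.768 TPM in untreated R, and the groups did not overlap (edgeR log2 fold change 2.06, SE 0.39, adjusted p = 0.00122). Its untreated libraries had 2.75, 2.36 and 0.884 TPM in S and 1.74, 2.67, 1.72 and 2.66 TPM in T. It was 1 of 4 genes whose untreated mean in R was below 1 TPM.

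The 197 genes were also divided into 3 sets by the geometric mean of their untreated S and T levels. In the lowest set (1.19 to 4.82 TPM) 44 of 66 genes rose in R, in the middle set (4.91 to 14.9 TPM) 34 of 65, and in the highest set (15.7 to 167 TPM) 34 of 66, or 66.7%, 52.3% and 51.5%. Among all tested genes that met the level clause in the same ranges, 11.9%, 9.33% and 6.81% were called higher in R, so the lowest set had the highest share in both. The median log2 fold changes of the 3 sets in R were 1.95, 1.61 and 1.25, against 0.01, -0.06 and -0.08 for those genes. Over the 197 genes, the Spearman correlation of log2 ratios was 0.34 between R and S and 0.39 between R and T, and the Pearson correlations were 0.32 and 0.40. These are descriptions across genes that share libraries, and the genes are not independent replicates.

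The 197 genes had shorter coding regions than tested genes at large, with a median of 996 bases, against 1311 bases for all tested genes and 1254 bases for those that met the level clause. The lengths ranged from 216 to 9849 bases, and all were multiples of 3, so they are given as coding lengths. Below 500 bases lay 34 of the 197 genes (17.3%), against 10.1% of all tested genes. Genes that rose in R had a median length of 1245 bases and those not called 759 bases. Of the 34 genes below 500 bases 15 rose in R (44.1%), of 67 from 500 to 1000 bases 33 (49.3%), of 75 from 1000 to 2000 bases 49 (65.3%), and of 21 longer ones 15 (71.4%). Among all tested genes of the same lengths, 6.97%, 8.14%, 10.2% and 10.2% were called higher in R.

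Some of the genes carried consecutive running numbers. There were 11 such runs with 26 of the 197 genes, of which 11 rose in R, against 56.9% of all 197 and 9.37% of all tested genes. The files give no positions, so it is not stated that they are neighbours in the genome. The longest run held 6 genes, g1117 to g1122, singled out after their values were seen, all with a coding length of 300 bases. None of the 6 rose in R. Their log2 fold changes there ranged from -0.34 to 0.62, with means of 7.62 to 47.5 TPM in treated R, against 5.73 to 53.0 TPM in untreated R. In S their means were 24.1 to 84.3 TPM in treated leaves, against 1.97 to 32.8 TPM in untreated ones, and in T 124 to 294 TPM, against 14.3 to 84.3 TPM. On the CPM scale (reads scaled to TMM-adjusted library size), which does not use transcript lengths, the 6 ratios were 2.57 to 12.0 in S, 3.99 to 9.89 in T and 0.79 to 1.58 in R. Counts of each of these genes were divided between transcripts in 10 to 21 libraries, so the 6 genes may share reads and are not 6 independent observations.

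Several transcript models were listed for 7 of the 197 genes (3.55%, against 7.08% of all tested genes). In 4 of the 7 the same transcript led in all 6 groups. For g10667 the transcript that led overall held 27.5% to 80.0% of the level, depending on the group, and for g18321 it held 42.3% to 100%. By summed TPM g18321 met the fold and separation clauses in R, with a ratio of 3.64. On summed counts it was not called there (edgeR log2 fold change 0.43, SE 0.48, adjusted p = 0.619). The cause of this difference was not tested. Counts were divided in at least 1 library for 108 of the 197 genes (54.8%), against 48.4% of all tested genes. Of the 89 genes with whole counts in all libraries (within 5e-04), 46 rose in R (51.7%), with a median log2 fold change of 1.52. Over all tested genes, with whole or divided counts, 9.37% were called higher.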

How the data were processed

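Leaf polyA RNA was sequenced in 22 libraries. Per the file headers, the authors deposited estimated counts per transcript and TPM over effective transcript lengths, together with the lengths in bases. Trimmomatic and Salmon were used, per the submitters' processing notes. No label or header names their versions, the transcript set, the build or the strandedness, so antisense or overlapping partners cannot be told apart. The genes, lists and tests were chosen with earlier results of these data known.

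TPM was summed per gene after removal of the transcript suffix. Estimated counts were rounded and summed over transcripts, and lines that name no gene were absent. Counts were normalised with TMM, filtered with filterByExpr (22627 of 45437 genes left) and fitted with 1 mean per group over all 22 libraries by edgeR 4.0.16 (R 4.3.3), using its robust quasi-likelihood F test. P-values were Benjamini-Hochberg adjusted over all tested genes. Each SE was taken as |log2 fold change| / √F. Scripts were tested on simulated data. Alternatives comprised other factors, no filter, R libraries alone, a replicate block, each library left out, DESeq2 1.42.0, limma 3.58.1 on log2(TPM + 1), and other fold and level clauses.

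Genes were named by rule, at most 2 per direction: the largest rises in R among called genes with non-overlapping groups and average log2 CPM of at least 1, those nearest 0 in R with at least 10 TPM untreated, the largest smaller-of-S-and-T ratio, the highest smaller-of-S-and-T treated mean, and the largest non-overlapping differences of untreated R from S and T. No gene passed the matching rule for falls in R. Pathway and cell type lists could not be matched, since the identifiers carry no names. Replicate libraries of a group differed by more than counting noise (chi-square per degree of freedom at least 15.4).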

Additional observations from a re-analysis of the deposited data

Results flagged for a closer look

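In single groups of 4 libraries, 1 library stood apart from the other 3 in 3 of 72 sets examined, by Dixon's test at the 95% level. Chance flags about 1 set in 20. Gene g3927 had 137.2 TPM in treated T library 2, against 81.0 to 90.4 TPM in the others. Gene g16677 had 24.27 TPM in treated S library 4, against 9.73 to 11.4 TPM in the others. Gene g2650 had 132 TPM in untreated T library 4, where the other libraries lay between 136.4 and 137.0 TPM.

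For 2 genes the libraries of R moved one way and those of S and T the other. The ratio of treated to untreated mean was 0.4881 in R for g5784, against 8.47 in S and 3.79 in T. For g16677 it was 0.5054 in R, against 2.78 in S and 3.06 in T. The difference between the populations was not tested, since S and T chose the genes.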

How the results depend on the processing

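The count of 112 genes that rose in R stayed within a factor of 1.5 under other scaling, no filter, DESeq2, limma and R libraries alone (87 to 123). In these models the share of all tested genes called higher moved too, from 5.94% without the filter to 11.4% with DESeq2. The count was 70 with a fold clause of 4 (64.8% of 108 genes kept) and 61 with a level clause of 5 TPM (54.5% of 112 kept). Both counts come from the main fit, in which 9.37% of all tested genes were called higher. The share among all genes that met the level clause of 5 TPM was not counted. Leaving out 1 R library gave 68 to 112, lowest without treated library 1, while 4.79% to 10.4% of all tested genes were called higher. Genes called lower numbered 1 with DESeq2, 1 with upper-quartile factors and 0 to 3 with 1 R library left out. Of all tested genes, 7.88%, 9.39% and 3.35% to 9.79% were called lower in these models. The median log2 fold change was 1.00 to 1.73 with 1 R library left out. The fold and separation clauses were then met in R by 85 to 122 genes, and the matching shares among genes that met the level clause were not counted. With 1 library of S or T left out the rule kept 176 to 221 genes, and with CPM in place of TPM 249, of which 194 are among the 197. With a replicate block 85 genes rose and 0 fell, and 5.39% of all tested genes were called higher. Over all tested genes, 2120 were higher and 1590 lower in R with TMM, 2260 and 1238 with RLE factors, and 2050 and 2124 with upper-quartile factors. Same-numbered R libraries did not deviate together (correlations -0.17, -0.01 and -0.02), and no treated R library correlated best with its own number. Treated T library 2 did (0.039, against at most 0.010 with other numbers). With so few libraries these correlations cannot decide whether the numbers pair the samples. Near 0 in R, g3927 changed sign with the replicate block (-0.014), upper-quartile factors (-0.035) and without treated library 1 or untreated library 1 (range -0.43 to 0.27). Gene g22412 changed sign with 1 library left out (-0.13 to 0.23), and g34178 with the replicate block (0.12) and without untreated library 3 (range -1.36 to 0.10). In R, the call of g24805 was lost under 8 of 15 alternative models and that of g15488 under 4, among them the replicate block (1.51, edgeR adjusted p = 0.129). That of g6117 was lost with the replicate block alone (2.90, edgeR adjusted p = 0.0761). The cause was not tested. Leaving out the 2 treated T libraries with a fixed length difference was added after seeing the data and gave 107 genes that rose in R. In that model 9.44% of all tested genes were called higher. Groups of 3 or 4 libraries limit the precision of single genes.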
